A study of Mus musculus with 2 samples.

Results

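Messenger RNA of 10 SOX transcription factor genes was compared between a control array and a Sin3a knockdown array of mouse embryonic stem cells. The genes are Sox4, Sox5, Sox6, Sox9, Sox11, Sox12, Sox13, Sox15, Sox18 and Sox21, a set chosen with earlier results on these arrays known. Their members on the array are the 36 probe sets that the platform annotation gives exactly 1 of these symbols, of 45101 probe sets in all. Because values from both arrays led to the choice, the differences below are a description of the 2 arrays and carry no test.

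The cells were E14, a mouse embryonic stem cell line, kept with serum and leukemia inhibitory factor on gelatin. The control group (shCtrl) was infected with lentivirus carrying an shRNA that targets no gene, and the knockdown group (shSin3a-1) with lentivirus carrying 1 shRNA against Sin3a. Both were selected with puromycin before total RNA was taken, and the time from infection to harvest is not given in the sources used here. Each group was 1 array, so no difference has a replicate check, and effects of this shRNA outside Sin3a cannot be told apart from those of the knockdown.

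SOX proteins bind DNA through an HMG box, which bends the helix, and they usually act together with a partner factor bound beside them. They fall into groups by sequence. Sox4, Sox11 and Sox12 form group C, activators of progenitor cells in the nervous system and mesenchyme. Sox5, Sox6 and Sox13 form group D, which lacks an activation domain of its own. Sox9 of group E directs cartilage and testis, Sox18 of group F acts in blood and lymph vessels, Sox15 is the sole member of group G, and Sox21 of group B2 is a repressor that opposes the group B1 factors, among them Sox2. Sin3a is the scaffold of a corepressor complex that carries histone deacetylases.

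The upstream sequence of the 3 group C genes is shown first because Sox11, the kept member that differed most, belongs to it, while its paralogs Sox4 and Sox12 differed little. Each run is the 250 bases before the annotated start, from RefSeq's promoter table for build GRCm38.p6, read 5′ to 3′ along the gene's strand. Capitals mark CpG dinucleotides.
Sox11 (chr12:27342719-27342968, minus strand): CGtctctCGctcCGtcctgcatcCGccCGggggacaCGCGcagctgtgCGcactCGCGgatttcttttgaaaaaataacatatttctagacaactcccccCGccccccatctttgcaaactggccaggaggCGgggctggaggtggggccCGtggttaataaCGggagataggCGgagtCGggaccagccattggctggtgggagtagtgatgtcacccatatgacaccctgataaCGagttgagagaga
Sox4 (chr13:28953700-28953949, minus strand): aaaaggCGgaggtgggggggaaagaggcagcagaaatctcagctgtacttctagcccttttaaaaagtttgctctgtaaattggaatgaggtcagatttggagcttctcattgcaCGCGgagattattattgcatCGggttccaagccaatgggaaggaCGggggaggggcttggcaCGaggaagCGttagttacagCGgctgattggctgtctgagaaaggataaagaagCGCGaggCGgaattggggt
Sox12 (chr2:152398047-152398296, minus strand): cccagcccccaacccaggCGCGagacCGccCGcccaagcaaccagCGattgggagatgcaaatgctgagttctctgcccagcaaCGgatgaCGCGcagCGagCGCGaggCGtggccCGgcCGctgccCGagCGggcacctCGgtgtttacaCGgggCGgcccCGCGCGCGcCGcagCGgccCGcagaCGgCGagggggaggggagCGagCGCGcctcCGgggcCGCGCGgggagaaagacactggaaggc
These stretches hold 17 CpG in Sox11, 11 in Sox4 and 35 in Sox12. Their GC content is 58.0%, 50.8% and 74.4%.

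Signals are given as deposited, on the linear scale of MAS5, the array maker's algorithm. A difference is log2 of shSin3a-1 minus log2 of shCtrl. Values under the 40th percentile of their array (46.8 in shCtrl and 41.7 in shSin3a-1) were set to that floor, so a fold with 1 side at the floor is a lower bound ("at least"), and a probe set under it on both arrays has no measured difference. A probe set was kept if it reached the 60th percentile on either array (131 in shCtrl, 126 in shSin3a-1). Levels of different probe sets are not set against each other, since each binds its own target with its own strength.

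The arrays went with their labels for the targeted gene: all 3 Sin3a probe sets were lower in shSin3a-1, the brightest with signals of 3072 and 534. Of 12 pluripotency markers 11 were kept and all 11 lay within 2-fold, among them Sox2 (10033 and 10874, log2 difference 0.12). The arrays were compared as deposited because they differed by 0.0077 at the 75th percentile (log2), although their medians differed by -0.11. Of 19146 kept probe sets, 648 (3.38%) were at least 2-fold higher in shSin3a-1 and 601 (3.14%) at least 2-fold lower, so that 51.9% of these were higher. With each array centred on its median, which adds 0.11 to every difference, 894 (4.67%) were higher and 423 (2.21%) lower, and 67.9% of these were higher.

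**Figure D1:**
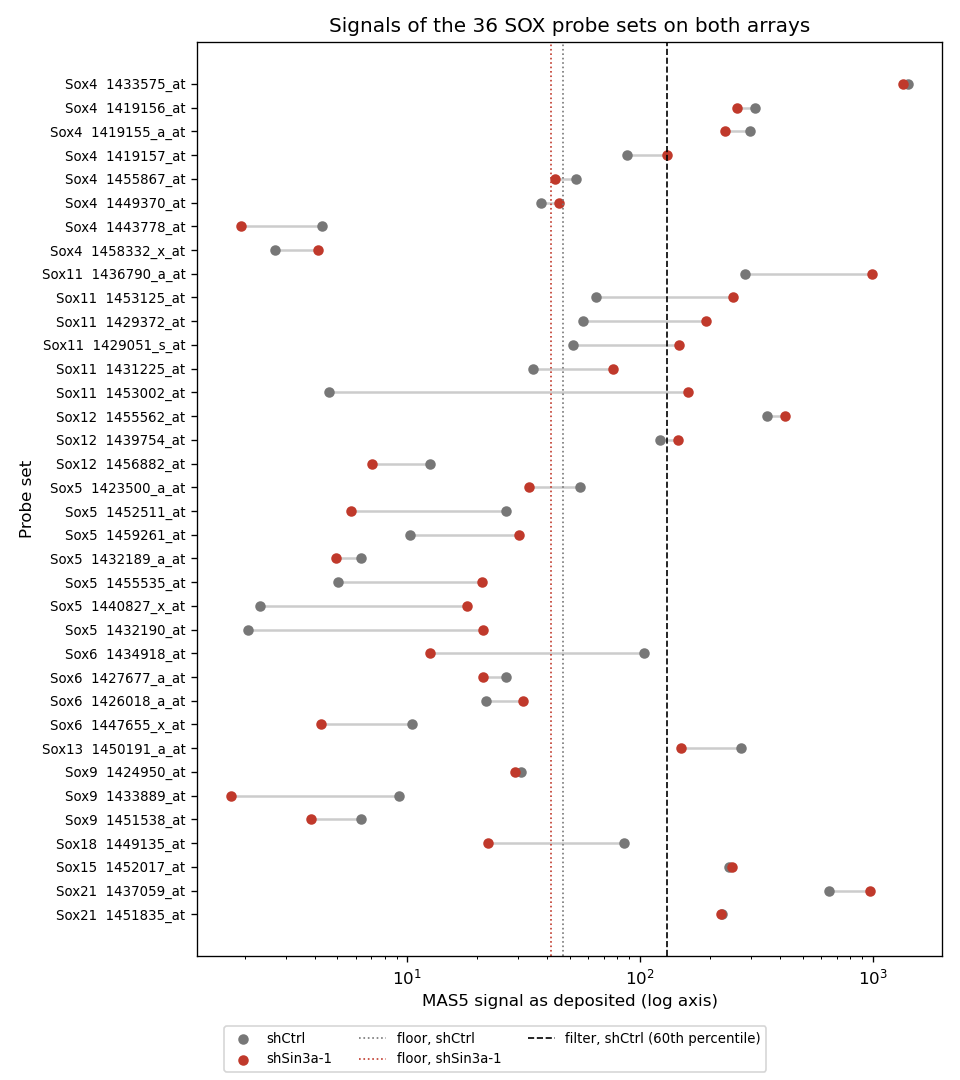
Deposited MAS5 signal (log axis) of each of the 36 SOX probe sets in shCtrl (grey) and shSin3a-1 (red), 1 array each; dotted lines mark the floor of each array and the dashed line the 60th percentile of shCtrl. All 6 Sox11 probe sets are higher in shSin3a-1, while Sox9, most Sox5 and most Sox6 probe sets lie left of the floor on both arrays.

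Sox11 was higher in the knockdown in every one of its 6 probe sets. Its brightest probe set, 1436790_a_at, gave 282 in the control and 998 in the knockdown. That is a 3.54-fold difference, or 1.82 on the log2 scale, and it places Sox11 at rank 13 from the highest among 9782 kept genes. Probe set 1453125_at had signals of 64.7 and 252 (3.89-fold, 1.96), and 1429372_at had 57.1 and 193 (3.38-fold, 1.76). In shCtrl both lay just over the floor.

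Of the remaining Sox11 probe sets, 1429051_s_at had signals of 51.7 and 147 (2.84-fold, 1.505). Probe set 1453002_at had 4.63 and 161, at least 3.45-fold higher with its shCtrl side at the floor. The last, 1431225_at, did not reach the filter. It had 34.7 and 76.8, at least 1.64-fold higher. The 6 probe sets come from 4 source sequences in the platform annotation, and 4 of them share a source in pairs, so they are not 6 separate observations.

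Of the 5 kept Sox11 probe sets, 1 reached the filter on both arrays and 4 through the shSin3a-1 array alone. Those 4 could be kept only by a larger value in shSin3a-1, and their number adds no weight to the direction. The brightest of the 6 had its larger signal between the 75th and 90th percentile, a range in which 2.49% of 7154 probe sets were at least 2-fold higher. Between the 60th and 75th percentile, where the larger signals of the other 4 kept probe sets lay, the share was 6.10% of 7149. The 5 kept differences had a mean of at least 1.77, since that of 1453002_at is a bound. Their SD between probe sets was 0.17 with that bound taken as its value, so it depends on the floor. This SD is not an error of the condition. Over the 4413 genes with at least 2 kept probe sets, the pooled SD between probe sets of a gene was 0.39.

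**Figure D2:**
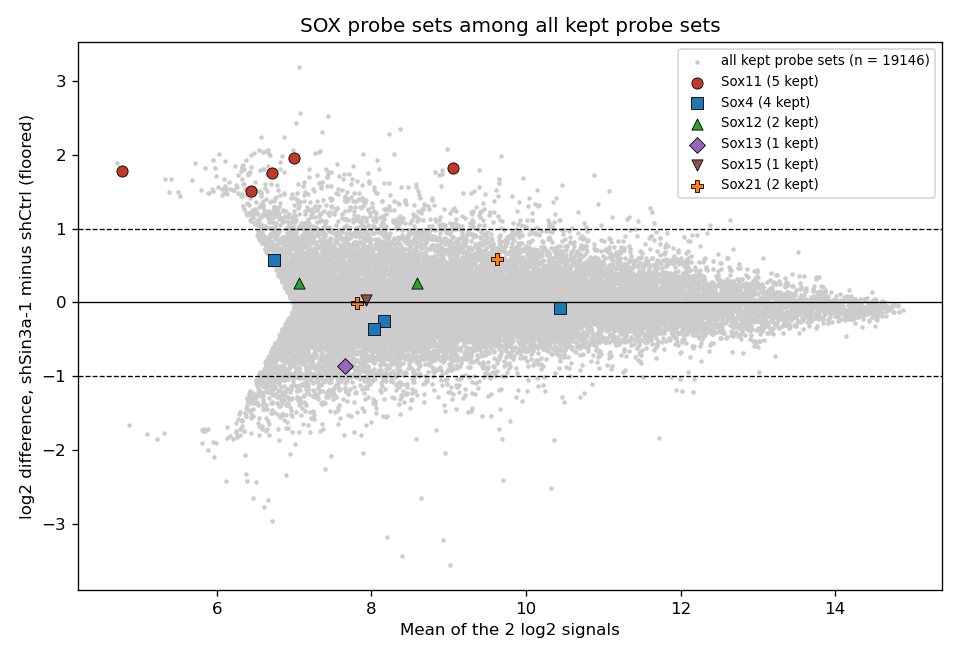
Log2 difference (shSin3a-1 minus shCtrl) against the mean of the 2 log2 signals for all 19146 kept probe sets (grey) and the 15 kept SOX probe sets (coloured by gene); dashed lines mark 2-fold. The 5 Sox11 points lie between 1.505 and 1.96, and the other 10 SOX points lie between the dashed lines.

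Sox4, the group C gene closest in known function to Sox11, did not share this difference. Its brightest probe set, 1433575_at, had signals of 1422 and 1347 (log2 difference -0.078, and 0.030 with median centring). Probe sets 1419156_at (312 and 261, -0.26) and 1419155_a_at (297 and 231, -0.36) were slightly lower in shSin3a-1, and 1419157_at was higher (87.6 and 131, 0.58). All 4 kept Sox4 probe sets thus lay within 2-fold. The higher one, 1419157_at, was kept through the shSin3a-1 array alone, so the filter favoured its sign. The others reached the filter on both arrays and were lower as deposited. Of the other 4 Sox4 probe sets, none reached the filter and 2 were below the floor on both arrays.

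Sox12, also of group C, was slightly higher in both kept probe sets. Probe set 1455562_at had signals of 351 and 421 (0.26), and 1439754_at had 122 and 146 (0.26). The latter was kept through the shSin3a-1 array alone, so the filter favoured its higher value. The remaining one, 1456882_at, was below the floor on both arrays (12.6 and 7.04).

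Sox21, the group B2 repressor, was measured by a pair of probe sets that did not move alike. Probe set 1437059_at had signals of 647 and 971 (0.58), while 1451835_at had 226 and 223 (-0.013, and 0.095 with median centring). Sox15, a gene also active in muscle precursors, had 1 probe set with signals of 241 and 248 (0.039). Neither gene passed 2-fold.

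Sox13, a group D gene known from T lymphocyte and neural development, was the lowest of the kept members. Its single probe set had signals of 273 and 150 (1.82-fold lower, log2 difference -0.86), which is under 2-fold. Sox5 and Sox6, the other group D genes, were at or near background. Of 7 Sox5 probe sets 6 were below the floor on both arrays, and the brightest had 55.5 and 33.3. Of 4 Sox6 probe sets 3 were under it on both. The fourth, 1434918_at, had 104 and 12.5, at least 2.49-fold lower, but it did not reach the filter.

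Sox9 and Sox18 were also dim. All 3 Sox9 probe sets were below the floor on both arrays, with signals up to 30.9 in shCtrl and 29.0 in shSin3a-1. The only Sox18 probe set had 85.4 and 22.2, at least 2.05-fold lower, and did not reach the filter. With median centring its bound was under 2-fold (-0.93). Of 10537 probe sets that missed the filter but lay over the floor on 1 or both arrays, 427 (4.05%) were at least 2-fold lower and 170 (1.61%) at least 2-fold higher, so the dim Sox6 and Sox18 differences are of a size that other dim probe sets also show.

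Counted together, 15 of the 36 SOX probe sets, from 6 of the 10 genes, were kept. Of these 15, 5 were at least 2-fold higher, all of Sox11, against 3.38% of all kept probe sets; none was 2-fold lower, against 3.14%. As 6 of the 15 were kept through the shSin3a-1 array alone and none through shCtrl alone, the count leans to higher values by its construction. The median log2 difference of the 15 was 0.26, beside -0.016 over all kept probe sets. Without Sox11 the median of the other 10 was 0.013. By brightest probe set, 1 of 6 kept SOX genes was 2-fold higher, beside 1.7% of 9782 kept genes, and none was 2-fold lower, beside 2.79%.

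**Figure D3:**
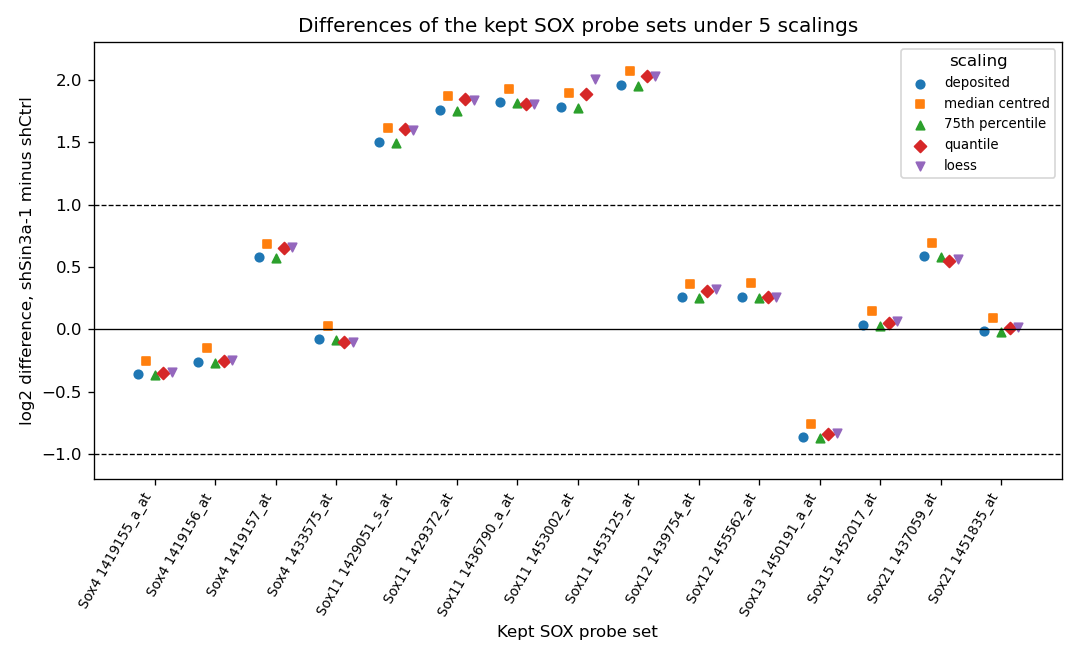
Log2 difference of each of the 15 kept SOX probe sets with the deposited scaling and with 4 other scalings of the arrays; dashed lines mark 2-fold. The 5 Sox11 probe sets stay over 2-fold in all 5 scalings, and the brightest Sox4 probe set and the dimmer Sox21 probe set cross 0.

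The other 10 SOX genes on the array place these values in the family. Of these, 5 were kept by brightest probe set and Sox17 alone passed 2-fold. Sox17, an endoderm factor of group F, had signals of 41.1 and 221, at least 4.73-fold higher, in a probe set kept through the shSin3a-1 array alone. This was 1429177_x_at, which carries a suffix for shared sequence. The other Sox17 probe set missed the filter (40.5 and 78.5, at least 1.67-fold higher). Sox7 of the same group, likewise kept through the shSin3a-1 array alone, had 87.1 and 133 (0.61). In group B1, Sox3 had 161 and 243 (0.60) and Sox1, a marker of early neural cells, had 235 and 120 (-0.97), on opposite sides of Sox2. Sox1 was kept through the shCtrl array alone. Second probe sets of Sox7 (34.4 and 44.2), Sox3 (34.9 and 60.3) and Sox1 (4.72 and 6.71) missed the filter. That of Sox1 was below the floor on both arrays, and those of Sox7 and Sox3 were below it in shCtrl. Sry, Sox8, Sox14 and Sox30 were below the floor on both arrays.

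Within group C, Sox11 was thus higher while Sox4 and Sox12 were within 2-fold. In group F, Sox17 was higher in dim probe sets while Sox18 had a dim and lower signal. Group D had 1 kept gene, Sox13, and group E none.

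**Figure D4:**
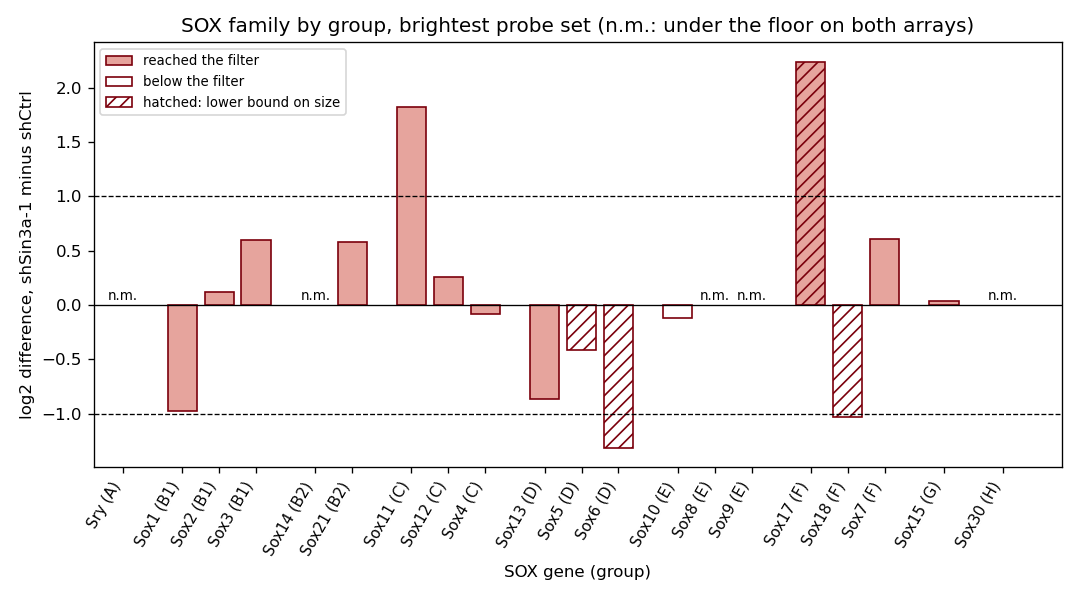
Log2 difference (shSin3a-1 minus shCtrl) of the brightest probe set of all 20 SOX genes, by group (A to H), from 1 array a group. Filled bars reached the filter, hatched bars are lower bounds on the size, and n.m. marks genes below the floor on both arrays; Sox11 and Sox17 are the filled bars past the upper 2-fold line.

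Kept genes known to act with SOX factors or downstream of them were within 2-fold, with 1 exception. Over all 9782 kept genes, 1.7% were at least 2-fold higher and 2.79% at least 2-fold lower. Most genes of any short list would thus lie within 2-fold, and these counts say little of the listed genes in particular. Of 6 genes known as targets of group C factors, 4 were kept and none passed 2-fold. Tubb3, a tubulin of neurons, had 875 and 686 (-0.35), Neurod1, a neuronal bHLH factor, had 244 and 324 (0.41), and Tead2 and Ezh2 were at -0.13 and 0.15. Dcx, a microtubule protein of young neurons, lay below the floor in either group. The 4 kept genes had a median of 0.00995 by brightest probe set. The median over all kept probe sets, which counts probe sets and not genes, was -0.016.

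Among the POU and PAX factors that bind beside SOX proteins, 2 of 6 on the array were kept. Pou5f1 was at -0.061 and Pou3f1 had 181 and 107 (-0.75). Of 7 genes with known joint SOX2 and OCT4 elements, all were kept and 6 lay within 2-fold, among them Fgf4 (-0.17), Utf1 (0.14) and Nanog (0.015). The exception was Lefty1, a Nodal inhibitor, with 1552 and 511 (-1.60). Of 11 cartilage targets of SOX9, SOX5 and SOX6 only Matn3, a matrix protein, was kept (93.9 and 137, 0.54), and 6 were below the floor on both arrays. Of 7 vascular targets of group F, Notch1 (0.21) and Efnb2 (0.38) were kept and 4 were below the floor on both arrays. Matn3 and Efnb2 were kept through the shSin3a-1 array alone and Pou3f1 through the shCtrl array alone, so the filter favoured their signs.

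Markers of other cell types were examined because Sox11 and Sox4 are abundant in neural and mesenchymal cells, and in bulk RNA a change in the share of a cell type and a change in RNA per cell cannot be told apart. Of 15 neural markers on the array 6 were kept, 2 of them (Sox1 and Nes) through the shCtrl array alone, and none passed 2-fold. The median of the 6 was -0.44, which leans low through these 2. The summed signal of all 15 was 2201 in shCtrl and 2012 in shSin3a-1. Fabp7, Neurog1, Neurog2, Pax3, Zic1 and Dcx were below the floor on both arrays. Tubb3, which had the largest signals of the list, was lower by as much as the whole sum, so the sum says little of the dimmer markers.

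Of 12 fibroblast markers 2 were kept, both through the shCtrl array alone, and Pdgfrb was lower (203 and 89.0, -1.19). Their summed signal was 691 and 470, and Col1a1, Col3a1, Dcn, Lum, Postn and Twist2 were below the floor on both arrays. None of 8 mesoderm markers was kept (summed signal 371 and 316). Of 9 endoderm markers 5 were kept, 4 of them through the shSin3a-1 array alone, so the filter favoured the sign of these. The remaining kept marker, Dab2, reached the filter on both arrays (173 and 276, 0.68). Sox17 and Pdgfra (58.5 and 131, 1.16) passed 2-fold. Of those that missed the filter, Gata4 was higher (66.6 and 90.2, 0.44) and Hnf4a lower (57.9 and 14.3, a bound of -0.48). The summed signal was 630 and 1075, and Afp was below the floor on both arrays. Of 9 trophectoderm markers 3 were kept, and all 3 were lower: Tfap2c (1157 and 487, -1.25), Krt18 (541 and 231, -1.23) and Krt8 (936 and 522, -0.84). Of those that missed the filter, Eomes (0.093), Hand1 (-0.11) and Krt7 (0.075) differed little, and Cdx2 was higher (8.61 and 70.0, a bound of 0.58). The summed signal was 2908 and 1567. The 3 kept genes held most of it, so the sum says little of the dimmer markers. Elf5 and Gata3 were below the floor on both arrays. The part of the endoderm and trophectoderm differences in the Sox11 result was not tested.

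Among 6414 other genes at or over the 75th percentile on both arrays, those with the difference closest to the brightest Sox11 probe set were Tcl1b3 (457 and 1409, 1.62), Gbx2, a homeobox gene of stem cells (1276 and 3647, 1.51), and Ntn1, the guidance cue netrin 1 (483 and 1308, 1.44). The brightest Sox11 probe set itself was under the 75th percentile in shCtrl, at 70.4. Likeness here is the gap between log2 differences (0.20, 0.31 and 0.38) over 1 pair of arrays.

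Promoter sequence was not used to choose the genes. RefSeq's table held 13 windows of 300 bases (250 before the start and 50 after) for 8 of the 10 genes, 6 of them for alternative starts of Sox6. CpG observed over expected is the CpG count divided by that expected from the C and G content. It was 0.82 in Sox11, 1.07 in Sox12, 1.00 in Sox13, 0.69 in Sox21 and 0.68 in Sox4, all over the median of 0.38 across 32851 windows. Sox15 (0.24) and Sox5 (0.26) were under it. The 6 Sox6 windows ran from 0.16 to 0.67. The Sox4 and Sox12 windows, of genes within 2-fold, lay on either side of Sox11.

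**Figure D5:**
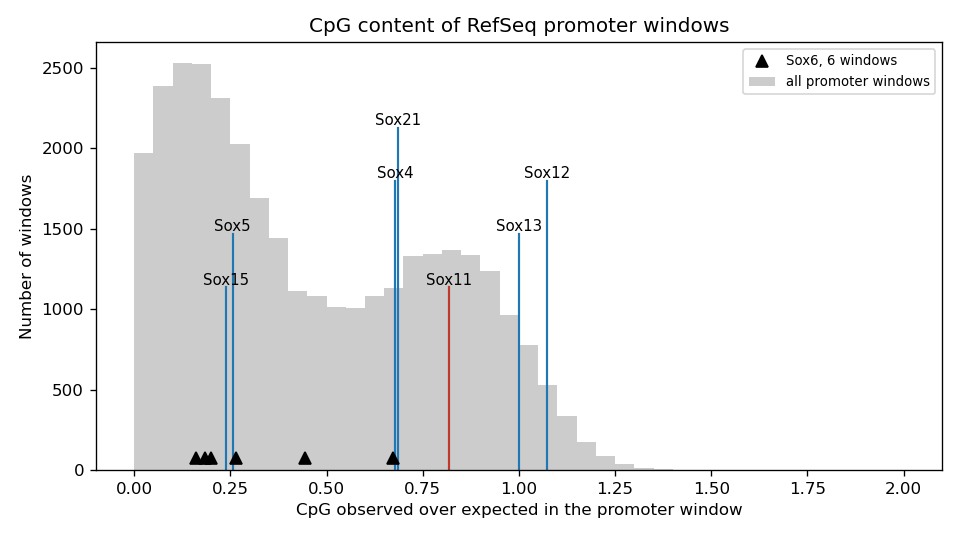
Number of RefSeq promoter windows by CpG observed over expected (grey histogram, 32851 windows), with lines for 7 SOX genes and triangles for the 6 Sox6 windows. Sox11 (red, 0.82) lies between Sox4 (0.68) and Sox12 (1.07).

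The letters CACGTG, the E-box bound by MYC, MAX and MXD factors, of which MXD proteins recruit SIN3, were in none of the 13 windows on either strand and in 7.15% of all windows. The letters CATTGT, a core that SOX proteins bind, were in 3 of the 13 (Sox5 and a pair of Sox6 windows) and in 12.6% of all windows. TTGTTT, which can overlap that core, was in 3 of the 13, all of Sox6, and in 20.7% of all. The Sox5 match is shown in the 250 bases before that gene's start, with the core in capitals read on the printed strand as ACAATG.
Sox5 (chr6:143947107-143947356, minus strand): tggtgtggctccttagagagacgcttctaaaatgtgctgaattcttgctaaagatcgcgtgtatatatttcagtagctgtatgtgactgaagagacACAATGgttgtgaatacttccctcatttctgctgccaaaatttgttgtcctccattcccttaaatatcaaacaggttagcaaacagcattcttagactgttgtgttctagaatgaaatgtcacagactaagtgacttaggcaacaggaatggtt
These are matches of letters in 1 window, and say nothing of binding in these cells.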

How the data were processed

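RNA from 1 shCtrl and 1 shSin3a-1 culture was hybridised to an Affymetrix 3' expression array after amplification and biotin labelling, per the labels' protocols, and groups follow the shRNA in the labels. The deposited values are intensity signals on a linear scale. MAS5 and Affymetrix Expression Console are the tools named for them, per the submitters' processing notes. Neither their versions nor the genome build is given in the sources used here. Both arrays had a trimmed mean of 500.003 after 2% was left off at each end. MAS5 subtracts mismatch signal and spreads widely near background, and the number of arrays limits the precision. The 64 control probe sets were left out. Of the rest, 34945 had 1 symbol, 932 several and 9160 none, and only the first were named, with symbols updated by Entrez identifier (34741 matched RefSeq GRCm38.p6).

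Signals were taken to log2 with the deposited scaling. Scaling on the median was made an alternative, since the median lies near background. A gene in a list is represented by its brightest probe set by mean log2 signal. With 1 array a group no p-value was computed, and 2-fold served as the fixed size. The members and lists were chosen with earlier results of these data known. Named genes were all SOX genes, Sin3a, list members past 2-fold and the 3 genes closest to Sox11; other list members were named after their values were seen. The planned comparison of SOX protein sequences was not made. Alternatives were other scalings, filters, floors, fold thresholds, an offset of 50 and other uses of probe sets. The procedure was tested on simulated data in which only probe sets at or over the 75th percentile of shCtrl were given a change. That test does not cover the dimmer range, in which all Sox11 probe sets lay in shCtrl. Python 3.11.15, pandas 2.3.3 and statsmodels 0.14.6 were used.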

Additional observations from a re-analysis of the deposited data

How the results depend on the processing

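No paired analysis was possible because each group holds 1 array. The count of 5 SOX probe sets at least 2-fold higher, all of Sox11, held with median centring, loess, quantile normalization and scaling on the 75th percentile, with filters at the 50th percentile or none, no floor and a floor at the 50th percentile. It was 1 with the filter at the 75th percentile, which leaves 4 SOX probe sets, 4 with an offset of 50 (1429051_s_at at 0.95) and 4 at 3-fold. At 1.5-fold it was 6, with 1 lower. Without probe sets of shared sequence it was 3. That setting leaves out 1436790_a_at, the brightest Sox11 probe set and the only 1 of that gene to reach the filter on both arrays. The 3 that stay were kept through the shSin3a-1 array alone. The brightest Sox11 probe set ran from 1.66 to 1.93 over the scalings, floors and the offset, and the mean of the 6 Sox11 differences, 2 of them bounds, was at least 1.59. Filters at the 50th percentile or none added 2 lower SOX probe sets, those of Sox6 and Sox18. Under the floor at the 50th percentile these were at -0.64 and -0.36. The median of the kept SOX probe sets was 0.37 with median centring, 0.42 when filtered at the 75th percentile and 0.039 without a filter. Over all kept probe sets, 818 were higher and 1028 lower with the filter at the 50th percentile (24206 probe sets) or none (29683 with a difference). The lower ones then outnumbered the higher, unlike in the main setting. With the filter at the 75th, 212 were higher and 148 lower. The counts were 329 and 226 with the offset, 2129 and 1962 at 1.5-fold, and 115 and 92 at 3-fold. Low signal limits Sox5, Sox6, Sox9 and Sox18, for which no level over the filter was measured.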

Other observations

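Of 1791 genes with at least 3 kept probe sets, 7 (0.391%) were at least 2-fold higher in all of them and 2 were at least 2-fold lower in all; this group was picked with the values known. The count leans on the filter, since all kept probe sets of Dab1, Nexmif and Rapgef3 and 4 of the 5 of Sox11 reached it through shSin3a-1 alone. So did 2 of the 3 of Elk3 and 1 of the 3 of Vcan, while 3 of the 6 of Ccnd2 reached it through shCtrl alone. Sox11 was among the 7. The others were Dab1, an adaptor of reelin signalling (4 probe sets, log2 differences 1.33 to 1.71), Nexmif (4, 1.53 to 2.01), Vcan, the matrix proteoglycan versican (3, 1.05 to 1.48), Ppp3ca, a catalytic subunit of calcineurin (3, 1.03 to 1.79), Rapgef3, an exchange factor activated by cyclic AMP (3, 1.39 to 1.67), and Elk3, an ETS factor (3, 1.02 to 1.49). The 2 lower genes were Ccnd2 (6, -3.56 to -2.65) and Sin3a itself (3, -2.52 to -1.73). The values of Nexmif, Rapgef3 and Ccnd2 include bounds. Their lowest signals, 26.2 and 12.1 in shCtrl and 34.0 in shSin3a-1, lay under the floor of the array.

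Sox2ot, a noncoding transcript that overlaps Sox2, had signals of 115 (control) and 42.5 (knockdown) (log2 difference -1.43) in a probe set under the filter, while Sox2 was at 0.12. The knockdown signal was just over the floor of 41.7. Of the probe sets that missed the filter but lay over the floor on 1 or both arrays, 4.05% were at least 2-fold lower.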
